A study of Mus musculus with 8 samples.

Results

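The genes described here encode the subunits of oxidative phosphorylation. They were chosen by symbol: a probe set with a single gene symbol counted if the symbol named a complex I subunit (Ndufa, Ndufb, Ndufc, Ndufs or Ndufv with a number), Sdha to Sdhd, a Uqcr gene, a Cox4 to Cox8 gene with a letter a to c, or an Atp5 gene. The brightest probe set stood for each gene, by its mean over all 8 arrays. This gave 78 of the 22180 named genes on the array. Of these, 73 were bright enough to be tested: 33 of complex I, 4 of complex II, 7 of complex III, 12 of complex IV and 17 of complex V. A gene was tested if it lay above the median of all deposited values, 4.24, on at least 2 arrays.

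RNA of 4 kinds of mouse cells was hybridised to Affymetrix Mouse Gene 2.1 arrays, 2 per group. All samples were wild type and of the C57BL/6J strain. FGF-ESC are a cell line labelled as derived from embryonic day 3.5 embryos and grown in KODMEM with 20% KSR (a serum replacement) and FGF2 on MEF, which are feeder fibroblasts. EpiSC, epiblast stem cells, carried the same day and culture conditions in their labels. ESC, embryonic stem cells, also labelled as from embryonic day 3.5, were grown without feeders in DMEM with 15% FCS, 2i (a pair of kinase inhibitors) and the cytokine LIF. ICM is the inner cell mass of day 3.5 blastocysts, isolated by immunosurgery and not cultured. RNA of the ICM was extracted with NucleoSpin XS and that of the cultured cells with NucleoSpin II, so uncultured tissue, extraction kit and cell state cannot be told apart in any comparison with the ICM. Each cultured group is a single labelled line or state, and nothing says that its arrays came from separate cultures, so the p-values rest on the spread of these arrays alone, and that spread may be technical.

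Oxidative phosphorylation takes place in the inner mitochondrial membrane. Complexes I and II pass electrons from NADH and succinate to ubiquinone, complex III passes them on to cytochrome c, and complex IV (cytochrome c oxidase) reduces oxygen. Complexes I, III and IV pump protons out of the matrix, and complex V, the ATP synthase, makes ATP from the proton gradient. Most subunits are encoded in the nucleus and a small core in mitochondrial DNA, so a working chain needs both. Several complex IV subunits exist as tissue isoforms, with separate genes for muscle or testis. Naive pluripotent cells are known to respire, whereas primed pluripotent cells are known for relying largely on glycolysis.

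The promoters below belong to the complex IV gene whose level moved most among the cultured states (Cox6b2), to its ubiquitous counterpart (Cox6b1), and to a complex III gene (Uqcrc1) and a complex II gene (Sdhd) that were called in opposite directions against the ICM and hold motif matches. Each runs from 250 bases before to 50 bases after the RefSeq start of the gene, is written 5′ to 3′ on the gene's strand and comes from RefSeq, build GRCm38.p6. Capitals mark motif matches on either strand: CCAAT in Cox6b2 and Cox6b1, the NRF1 core CGCANGCG in Uqcrc1 and Sdhd, and the ERR motif TCAAGGTCA in Sdhd. The windows are chr7:4753045-4753344 on the minus strand for Cox6b2, chr7:30626065-30626364 on the minus strand for Cox6b1, chr9:108936398-108936697 on the plus strand for Uqcrc1 and chr9:50603800-50604099 on the minus strand for Sdhd.
Cox6b2: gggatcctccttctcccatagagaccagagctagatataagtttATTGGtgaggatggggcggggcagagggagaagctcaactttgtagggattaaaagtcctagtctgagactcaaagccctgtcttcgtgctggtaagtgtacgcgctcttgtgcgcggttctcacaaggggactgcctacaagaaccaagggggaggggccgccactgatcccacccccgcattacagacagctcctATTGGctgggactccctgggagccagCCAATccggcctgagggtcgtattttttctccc
Cox6b1: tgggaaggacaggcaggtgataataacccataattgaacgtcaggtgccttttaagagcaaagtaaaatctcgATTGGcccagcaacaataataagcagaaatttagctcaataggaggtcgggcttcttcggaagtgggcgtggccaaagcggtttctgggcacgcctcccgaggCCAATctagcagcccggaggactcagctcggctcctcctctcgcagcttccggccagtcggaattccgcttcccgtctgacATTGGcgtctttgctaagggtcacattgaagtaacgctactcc
Uqcrc1: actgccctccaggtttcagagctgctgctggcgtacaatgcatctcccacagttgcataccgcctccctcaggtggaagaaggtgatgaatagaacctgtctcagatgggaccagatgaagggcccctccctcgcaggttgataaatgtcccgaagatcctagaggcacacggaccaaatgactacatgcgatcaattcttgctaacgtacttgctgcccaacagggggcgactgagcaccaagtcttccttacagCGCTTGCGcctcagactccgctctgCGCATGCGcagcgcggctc
Sdhd: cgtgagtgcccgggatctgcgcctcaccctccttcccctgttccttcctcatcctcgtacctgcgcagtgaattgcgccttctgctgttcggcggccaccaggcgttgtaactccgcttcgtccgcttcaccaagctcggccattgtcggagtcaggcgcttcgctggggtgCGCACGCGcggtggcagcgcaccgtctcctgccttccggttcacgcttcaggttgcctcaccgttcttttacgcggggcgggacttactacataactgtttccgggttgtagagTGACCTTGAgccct

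NRF1 is a transcription factor known to act at genes of the respiratory chain, and its motif was the one searched that occurred most often beyond the common CCAAT box. Promoters of 64 members were found in the RefSeq table, and 23 of them (35.9%) held CGCANGCG on either strand, against 9.22% of the 27025 genes in the table. The YY1 core AAGATGGCG occurred in 6 members (9.38%, against 1.64% of all genes) and TCAAGGTCA in 2 (3.12%, against 0.466%). The ETS motif CCGGAAGT, which GABPA binds, occurred in 5 (7.81%, against 4.31%), and CCAAT in 26 (40.6%, against 41.1%). The members' windows were also richer in G and C, with a median of 57.3% against 52.7% over all windows. Of the 21 members with a promoter in the table that passed the test in at least 1 comparison, 8 held the NRF1 core, as did 15 of the 41 tested members that passed in none. The Cox6b2 and Cox6b1 windows each held 3 CCAAT matches. The levels of these genes are given under complex IV, and a link between motif and level was not tested.

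The subunit genes were bright and steady across the 4 states. Their median level was 8.79 on the log2 scale, against 5.64 over all 13597 tested genes. The distance between the highest and the lowest group mean had a median of 0.31 among the members and 0.57 among all tested genes. It was under 0.5 for 56 of the 73 members (76.7%, against 44.1% of all genes) and 1 or more for 3 of them (4.11%, against 25.3%): Cox6b2, Cox7a1 and Ndufa4l2. Ndufa4l2 was tested only through its FGF-ESC arrays, the group in which it was high. The values of this spread changed little with quantile normalization or median centring, where 56 and 57 members stayed under 0.5. The spread between arrays of a group was also smaller for the members, with a median SD of 0.083 against 0.149. No test was made of this contrast, and the part of the members' brightness in it was not tested.

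**Figure D1:**
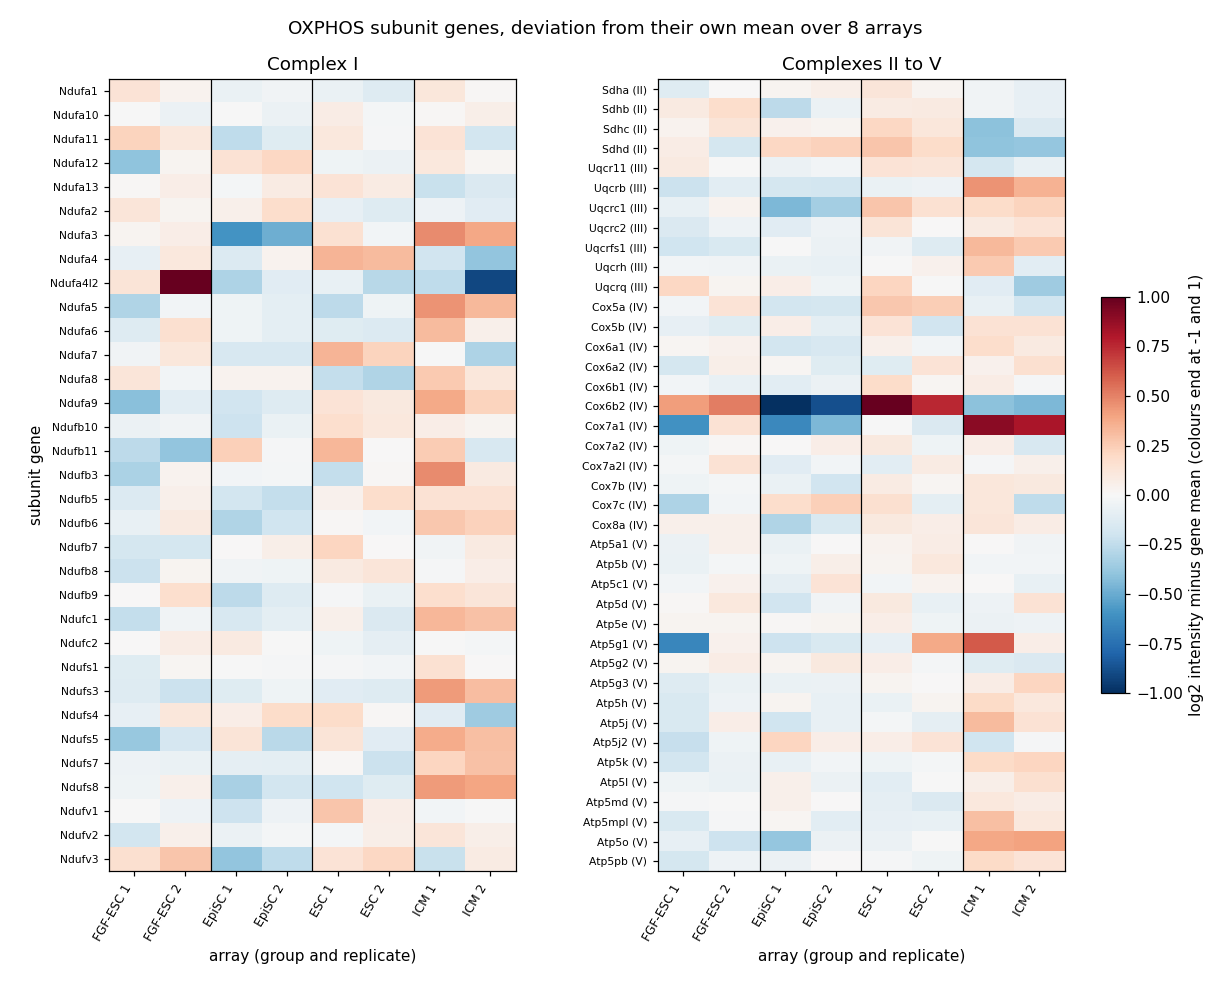
Level of each of the 73 tested subunit genes on each array, relative to that gene's mean over the 8 arrays (log2), with genes in rows by complex and arrays in columns by group. Most rows are pale; Cox6b2 stands out as high in FGF-ESC and ESC, Cox7a1 as high in the ICM and Ndufa4l2 as high on replicate 2 of FGF-ESC.

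Averaged over the 73 members, FGF-ESC arrays stood at 8.42 and 8.54, EpiSC arrays at 8.40 and 8.44, ESC arrays at 8.57 and 8.52, and ICM arrays at 8.62 and 8.54. The range of FGF-ESC overlapped those of the 3 other groups and ESC overlapped the ICM, whereas EpiSC lay below ESC and the ICM. By group mean, the ICM was highest for 37 of 73 members (50.7%, against 32.2% of all tested genes), and it remained the group most often highest with quantile normalization (31) and median centring (38). EpiSC and FGF-ESC were each lowest for 27 members (37%, against 22.5% of all tested genes for EpiSC and 27% for FGF-ESC). The FGF-ESC number depended on the scaling, with 24 after quantile normalization and 13 after median centring, whereas EpiSC gave 28 and 32. In bulk samples, fewer cells of a type and less RNA per cell cannot be told apart, and this holds for every result here.

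The averages of marker lists for the states and for other cell types differed between the groups, though not every marker followed its list. Over 10 fibroblast genes, the FGF-ESC arrays averaged 9.33 and 8.16, the EpiSC arrays 5.28 and 5.66, the ESC arrays 4.64 and 4.64, and the ICM arrays 4.67 and 4.83. In FGF-ESC, 8 of the 10 passed as higher against ESC, 9 against EpiSC and 10 against the ICM. The part of fibroblast RNA in any FGF-ESC result was not tested. The 6 naive markers averaged 7.44 and 7.69 in FGF-ESC, 4.54 and 4.96 in EpiSC, 8.39 and 8.33 in ESC, and 7.24 and 7.22 in the ICM. They were split between FGF-ESC and the ICM, where 2 of the 6 passed as higher in FGF-ESC and 3 as lower. Nr0b1 was at 8.35 in FGF-ESC and 3.93 in the ICM, whereas Zfp42 was at 7.99 and 9.44. The average of the 6 primed markers was highest in EpiSC, at 7.35 and 7.78, although Otx2 was at 6.10 in the ICM and 5.97 in EpiSC. The average of the trophectoderm markers was highest in the ICM (5.93 and 5.88, against 4.69 to 5.28 on the cultured arrays), although Eomes was higher in EpiSC. That of the primitive endoderm markers was also highest there (5.98 and 6.01, against 4.14 to 5.32). In that list Gata6 differed most, at 8.02 in the ICM and 3.62 in FGF-ESC. Dab2 was at 6.93 in FGF-ESC and 6.71 in the ICM, and Pdgfra at 7.43 and 7.94. The part of these cell types in the ICM results was not tested. FGF-ESC arrays agreed least with each other, with a residual SD over the members of 0.194, against 0.084 in EpiSC, 0.102 in ESC and 0.129 in the ICM. The dim gene Ndufa4l2 had the widest spread of the members in FGF-ESC, with an SD of 1.18, and adds to that value. Over all tested genes the residual SD was 0.279, 0.151, 0.124 and 0.208 in the same order of groups.

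Set against ESC, FGF-ESC showed no called difference in any subunit gene: of the 73 members, 0 passed limma's test at an adjusted p below 0.05. The share over all tested genes was 15.3%, made up of 9.24% higher and 6.11% lower, and it was 6.21% with a log2 difference of at least 1. The median log2 difference was -0.07, against -0.06 over all genes. Of the 73 members, 72 differed by less than 0.5 (98.6%, against 80.6% of all tested genes). At an unadjusted p below 0.05 there were 7 members, and 4222 of the 13597 tested genes. With a single FGF-ESC array left out, Ndufa4l2 passed without replicate 1, and Cox7a1 and Ndufa9 without replicate 2. The share of all genes that passed fell without replicate 1 and rose without replicate 2.

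FGF-ESC differed from EpiSC in 3 members, all higher in FGF-ESC: Cox6b2, Ndufa3 and Ndufv3. Of all tested genes 19.8% passed, 10.7% higher and 9.13% lower, and 7.28% with a log2 difference of at least 1, which 1 member, Cox6b2, also had. The members' median difference was 0.01 and that of all genes -0.04. Cox6b2 was the call that remained without EpiSC replicate 1, where the share of all genes that passed fell too. Without FGF-ESC replicate 1 more members passed, while that share fell. EpiSC differed from ESC in 5 members, all lower in EpiSC (Cox6b2, Ndufa3, Uqcrc1, Ndufv3 and Cox5a), where 19% of all genes passed, 9.86% higher and 9.15% lower. With a log2 difference of at least 1 it was 7.36% of all genes and 1 member, Cox6b2. Leaving out single ESC or EpiSC arrays left fewer of the 5 calls between EpiSC and ESC, and the share of all genes that passed fell too. Cox6b2 remained each time, and Ndufa3 and Uqcrc1 also remained without replicate 2 of either group.

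Against the ICM, 14 members passed in FGF-ESC (2 higher, 12 lower; 36.7% of all genes passed), 15 in EpiSC (1 higher, 14 lower; 38.4%) and 15 in ESC (6 higher, 9 lower; 33%). As a share these are 19.2%, 20.5% and 20.5% of the members. Of all genes, 19.7% were higher and 17% lower in FGF-ESC, 20.4% and 18% in EpiSC, and 17.8% and 15.2% in ESC. With a log2 difference of at least 1 there were 2 members in FGF-ESC (14.8% of all genes), 1 in EpiSC (15.3%) and 1 in ESC (11.4%). The number called depended on limma's variance prior. With a trended and robust prior and no fold minimum, 23 members passed in FGF-ESC (37.5% of all genes), 25 in EpiSC (38.9%) and 19 in ESC (34%). In the main fit, the split between higher and lower moved with the scaling: after quantile normalization it was 5 and 10 for FGF-ESC, 2 and 10 for EpiSC, and 8 and 7 for ESC. These 3 comparisons share the ICM arrays. Lower in all 3 cultured groups were 8 members, Ndufa3, Ndufa5, Ndufs3, Ndufs8, Uqcrb, Uqcrfs1, Cox7a1 and Atp5o, and 0 were higher in all 3. The matching share of all tested genes was not computed, so this says nothing of the members in particular. Fewer members passed in all 3 comparisons when either ICM array was left out. The number also fell for FGF-ESC without its replicate 1, and for EpiSC and ESC without either of their own arrays. In each of these fits the share of all tested genes that passed fell too.

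**Figure D2:**
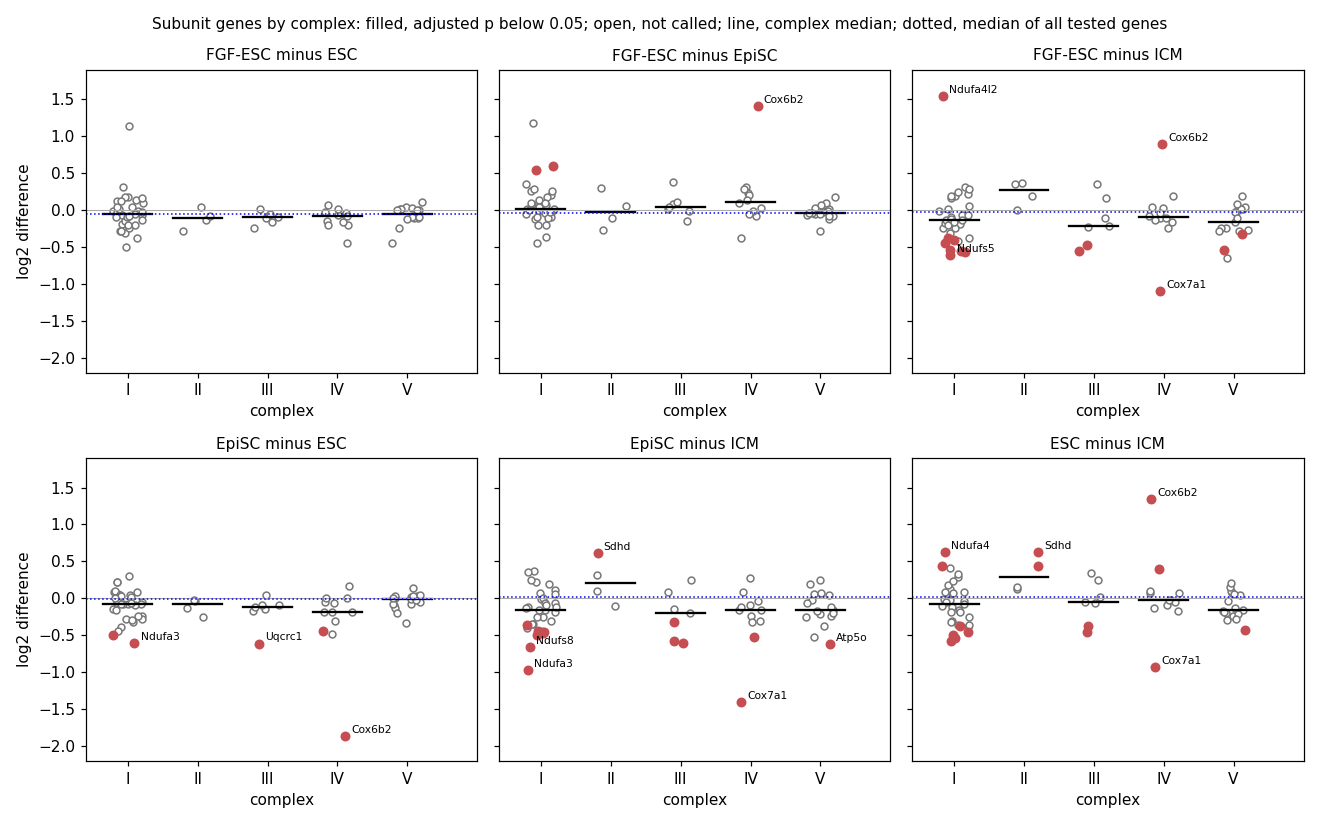
Log2 difference of each tested subunit gene (points) by complex in the 6 comparisons; filled points passed an adjusted p below 0.05, bars are complex medians and the dotted line is the median of all tested genes. No point is filled for FGF-ESC minus ESC, and Cox6b2 and Cox7a1 lie farthest from 0 in several panels.

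Complex I takes electrons from NADH and is the largest complex of the chain. Its 33 tested members averaged 8.28 and 8.43 on the FGF-ESC arrays, 8.26 and 8.29 on the EpiSC arrays, 8.41 and 8.35 on the ESC arrays, and 8.50 and 8.40 on the ICM arrays. Against the ICM, 8 passed in FGF-ESC (1 higher, 7 lower; 24.2%, against 36.7% of all genes), 8 in EpiSC (all lower; 24.2%, against 38.4%) and 7 in ESC (2 higher, 5 lower; 21.2%, against 33%). The 1 higher in FGF-ESC was Ndufa4l2, which passed the filter only through its FGF-ESC arrays. Among the cultured groups 2 passed, Ndufa3 and Ndufv3. Both passed for FGF-ESC against EpiSC (6.06%, against 19.8% of all genes) and for EpiSC against ESC (6.06%, against 19%). Between FGF-ESC and ESC 0 passed (15.3% of all genes).

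Ndufs8, a core subunit that carries iron-sulphur clusters next to the ubiquinone site, was at 8.22 and 8.31 in FGF-ESC, 7.94 and 8.08 in EpiSC, 8.07 and 8.14 in ESC, and 8.69 and 8.66 in the ICM. Every cultured array lay below the ICM arrays. The log2 difference from the ICM was -0.41 ± 0.12 in FGF-ESC (limma SE, adjusted p = 0.0245), -0.66 ± 0.12 in EpiSC (adjusted p = 0.00241) and -0.57 ± 0.12 in ESC (adjusted p = 0.00634). The EpiSC call held without any 1 of the 8 arrays, the ESC call was lost without ESC replicate 1 (adjusted p = 0.06) and the FGF-ESC call without 5 of the 8 arrays (adjusted p up to 0.0768). Ndufs3, a core subunit of the matrix arm, had 6.42 and 6.34 in FGF-ESC, 6.43 and 6.51 in EpiSC, 6.44 and 6.42 in ESC, and 6.98 and 6.86 in the ICM. It fell by 0.54 in FGF-ESC, by 0.45 in EpiSC and by 0.49 in ESC relative to the ICM (adjusted p = 0.00702, 0.0147 and 0.0119), with the FGF-ESC call kept without any 1 array and the other calls lost without 3 of the 8. The other core subunits measured, Ndufs1, Ndufs7, Ndufv1 and Ndufv2, passed in 0 comparisons, and their differences lay between -0.36 and 0.19. Ndufs7, which carries the last iron-sulphur cluster before ubiquinone, had the widest of these, at 7.38 and 7.37 in FGF-ESC, 7.34 and 7.33 in EpiSC, 7.44 and 7.22 in ESC, and 7.65 and 7.72 in the ICM.

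Ndufa3, an accessory subunit of the membrane arm, separated EpiSC from the other groups. It was at 9.56 and 9.60 in FGF-ESC, 8.93 and 9.04 in EpiSC, 9.68 and 9.504 in ESC, and 10.004 and 9.91 in the ICM. FGF-ESC and ESC overlapped, EpiSC lay below all other arrays and the ICM above them. The log2 difference was 0.59 ± 0.12 for FGF-ESC against EpiSC (adjusted p = 0.0108), -0.61 ± 0.12 for EpiSC against ESC (adjusted p = 0.00939) and -0.98 ± 0.12 for EpiSC against the ICM (adjusted p = 0.000368). The last held without any 1 array, the first was lost without EpiSC replicate 1 (adjusted p = 0.0917) and the EpiSC-ESC call without ESC or EpiSC replicate 1. Its smaller differences of FGF-ESC (-0.38) and ESC (-0.37) from the ICM passed at 0.0373 and 0.046 and were lost without 8 and 6 of the 8 arrays in turn. Ndufv3, an accessory subunit of the NADH-oxidising module, was at 7.06 and 7.18 in FGF-ESC, 6.51 and 6.65 in EpiSC, 7.03 and 7.11 in ESC, and 6.68 and 6.98 in the ICM. It was higher in FGF-ESC than in EpiSC by 0.54 (adjusted p = 0.0282) and lower in EpiSC than in ESC by a log2 difference of -0.49 (adjusted p = 0.0403), calls lost without 5 and 4 of the 8 arrays.

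Other accessory subunits followed the ICM or ESC arrays. Ndufa5 had 7.78 and 8.06 in FGF-ESC, 8.04 and 7.99 in EpiSC, 7.82 and 8.04 in ESC, and 8.54 and 8.40 in the ICM, with differences from the ICM of -0.55, -0.46 and -0.54 (adjusted p = 0.017, 0.0342 and 0.02). These calls were lost without 2, 6 and 2 of the 8 arrays. Ndufa9, a subunit that binds a nucleotide near the junction of the arms, was lower than in the ICM by -0.56 in FGF-ESC and -0.46 in EpiSC (adjusted p = 0.0138 and 0.0288), and Ndufc1 by -0.45 and -0.44 (adjusted p = 0.0271 and 0.0278). Ndufb6 was at 8.62 and 8.72 in EpiSC and 9.19 and 9.15 in the ICM, a difference of -0.50 (adjusted p = 0.0104), and Ndufb5 differed there by -0.35 (adjusted p = 0.0487). Ndufa8 was lower in ESC than in the ICM by -0.46 (adjusted p = 0.02), whereas Ndufa7 was higher by 0.44 (adjusted p = 0.0425). A dimmer probe set of Ndufa8 gave -0.43 for ESC against the ICM. Among these, the calls of Ndufa9, Ndufc1, Ndufb5, Ndufb6, Ndufa8 and Ndufa7 were each lost without between 1 and 6 of the 8 arrays. The Ndufa7 difference was 0.28 without ICM replicate 2. In RefSeq Ndufa9 overlaps 1700018A23Rik, and which of them its probes report was not tested. Ndufs5 was lower in FGF-ESC than in the ICM by -0.61 (adjusted p = 0.0215), but its level of 4.02 and 4.24 in FGF-ESC and 4.78 and 4.70 in the ICM lay close to the array median.

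Ndufa4 is counted here with complex I by its name, although the protein is now placed in complex IV. It was at 10.43 and 10.62 in FGF-ESC, 10.37 and 10.54 in EpiSC, 10.85 and 10.83 in ESC, and 10.32 and 10.11 in the ICM. ESC exceeded every other array, and the difference of ESC from the ICM was 0.62 ± 0.13 (adjusted p = 0.00828), lost without ESC replicate 1 or 2 (adjusted p up to 0.0627). Its paralogue Ndufa4l2, a gene known to be induced by hypoxia, was at 4.297 and 5.96 in FGF-ESC, 3.86 and 4.06 in EpiSC, 4.09 and 3.89 in ESC, and 3.92 and 3.26 in the ICM. A single array, FGF-ESC replicate 2, held the high value. The difference of FGF-ESC from the ICM, 1.54 ± 0.46 (adjusted p = 0.0304), was 0.71 without that array and 2.38 without FGF-ESC replicate 1. The call was lost without 7 of the 8 arrays, and in RefSeq the gene overlaps Shmt2, so probes in a shared region could report either gene.

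Complex II, succinate dehydrogenase, is part of both the citric acid cycle and the respiratory chain, and all of its subunits are nuclear. The median difference of its 4 genes from the ICM was 0.27 in FGF-ESC, 0.21 in EpiSC and 0.29 in ESC. Their mean level was 8.03 and 8.04 in FGF-ESC, 8.01 and 8.08 in EpiSC, 8.18 and 8.12 in ESC, and 7.79 and 7.84 in the ICM. Sdhd, a membrane anchor subunit, was at 7.80 and 7.55 in FGF-ESC, 7.93 and 7.95 in EpiSC, 8.001 and 7.91 in ESC, and 7.32 and 7.33 in the ICM. It was higher than in the ICM by 0.61 ± 0.13 in EpiSC (adjusted p = 0.00532) and by 0.63 ± 0.13 in ESC (adjusted p = 0.00585). The EpiSC call held without any 1 array and the ESC call was lost without ESC replicate 1 (adjusted p = 0.0574). The FGF-ESC arrays lay between ICM and the other cultured arrays, and the FGF-ESC difference of 0.35 did not pass. Sdhc, the other anchor, was higher in ESC than in the ICM by 0.44 (adjusted p = 0.0332), a call lost without 5 of the 8 arrays, and in RefSeq the gene overlaps Gm46172, likewise not tested. The catalytic pair differed less: Sdha, which binds FAD, had differences between -0.13 and 0.13, and Sdhb, which carries iron-sulphur clusters, between -0.25 and 0.29, none of which passed.

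Complex III passes electrons from ubiquinol to cytochrome c. Its 7 tested members averaged 8.61 and 8.62 in FGF-ESC, 8.55 and 8.55 in EpiSC, 8.76 and 8.68 in ESC, and 8.81 and 8.73 in the ICM. Against the ICM, 2 members passed in FGF-ESC (28.6%, against 36.7% of all genes), 3 in EpiSC (42.9%, against 38.4%) and 2 in ESC (28.6%, against 33%), all lower in the cultured cells. Uqcrb, which binds ubiquinone, was at 9.56 and 9.68 in FGF-ESC, 9.61 and 9.60 in EpiSC, 9.72 and 9.73 in ESC, and 10.23 and 10.12 in the ICM. Every cultured array lay below the ICM arrays, with differences of -0.56 ± 0.11 (adjusted p = 0.00566), -0.58 ± 0.11 (adjusted p = 0.00435) and -0.46 ± 0.11 (adjusted p = 0.0156) for FGF-ESC, EpiSC and ESC. The FGF-ESC and EpiSC calls held without any 1 array and the ESC call was lost without 3 of the 8. Uqcrfs1, the Rieske iron-sulphur protein, was at 6.80 and 6.84 in FGF-ESC, 6.99 and 6.94 in EpiSC, 6.96 and 6.86 in ESC, and 7.32 and 7.26 in the ICM, with differences of -0.47, -0.32 and -0.37 (adjusted p = 0.012, 0.0499 and 0.0332). The FGF-ESC call held without any 1 array, and the EpiSC and ESC calls were each lost without 6 of the 8.

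Uqcrc1, a core protein on the matrix side, gave the clearest EpiSC pattern in complex III. It was at 8.84 and 8.95 in FGF-ESC, 8.47 and 8.58 in EpiSC, 9.19 and 9.07 in ESC, and 9.10 and 9.14 in the ICM. EpiSC lay below every other array, and ESC and the ICM overlapped. The difference was -0.61 ± 0.12 for EpiSC against ESC (adjusted p = 0.00808) and -0.60 ± 0.12 for EpiSC against the ICM (adjusted p = 0.00431), and the difference of FGF-ESC from EpiSC, 0.37, did not pass. The call against the ICM held without any 1 array, and that against ESC was lost without ESC or EpiSC replicate 1 (adjusted p up to 0.0864). Its promoter, shown above, held the NRF1 core at 7 and 32 bases after the RefSeq start. Uqcrc2, the partner core protein, had differences between -0.22 and -0.02, and none passed.

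Complex IV held Cox6b2 and Cox7a1, tissue isoforms and the members other than Ndufa4l2 whose group means spread by 1 or more. Its 12 tested members averaged 8.54 and 8.69 in FGF-ESC, 8.42 and 8.45 in EpiSC, 8.77 and 8.68 in ESC, and 8.72 and 8.64 in the ICM. Cox6b2, the isoform of subunit 6b known from testis, was at 8.60 and 8.69 in FGF-ESC, 7.16 and 7.30 in EpiSC, 9.25 and 8.93 in ESC, and 7.77 and 7.73 in the ICM. The groups did not overlap, in the order ESC, FGF-ESC, ICM and EpiSC from high to low. Cox6b2 was 2.66-fold higher in FGF-ESC than in EpiSC (log2 difference 1.41 ± 0.14, adjusted p = 0.000402) and 1.86-fold higher than in the ICM (0.90 ± 0.14, adjusted p = 0.0015). It was lower in EpiSC than in ESC by a log2 difference of -1.86 ± 0.14 (adjusted p = 7.77e-05) and higher in ESC than in the ICM by 1.34 ± 0.14 (adjusted p = 0.000231). These 4 calls held without any 1 of the 8 arrays.

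The neighbouring groups in that order were closer. FGF-ESC and ESC differed by -0.45 (adjusted p = 0.0664), which did not pass. EpiSC was lower than the ICM by -0.52 (adjusted p = 0.0192), a call lost without either EpiSC or either ICM array (adjusted p up to 0.123). Cox6b1, the ubiquitous isoform, was at 9.51 and 9.47 in FGF-ESC, 9.44 and 9.48 in EpiSC, 9.73 and 9.56 in ESC, and 9.62 and 9.53 in the ICM. Its differences lay between -0.18 and 0.07 and none passed.

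Cox7a1, the isoform of subunit 7a known from heart and skeletal muscle, was highest in the ICM. It was at 6.65 and 7.40 in FGF-ESC, 6.61 and 6.80 in EpiSC, 7.25 and 7.11 in ESC, and 8.15 and 8.07 in the ICM. The cultured groups overlapped, except EpiSC and ESC, and the FGF-ESC arrays stood far apart. The difference from the ICM was -1.09 ± 0.22 in FGF-ESC (adjusted p = 0.00589), -1.41 ± 0.22 in EpiSC (adjusted p = 0.00145) and -0.93 ± 0.22 in ESC (adjusted p = 0.0135). In FGF-ESC it ran from -1.47 to -0.72 with single arrays left out and passed each time, as did EpiSC, whereas the ESC call was lost without either ESC or either ICM array (adjusted p up to 0.0905). Cox7a2, the ubiquitous counterpart, was at 9.94 and 9.9995 in FGF-ESC, 9.99 and 10.05 in EpiSC, 10.08 and 9.94 in ESC, and 10.05 and 9.82 in the ICM, with differences between -0.05 and 0.08. Cox7a2l, a further gene of this family, differed by -0.09 to 0.13.

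**Figure D3:**
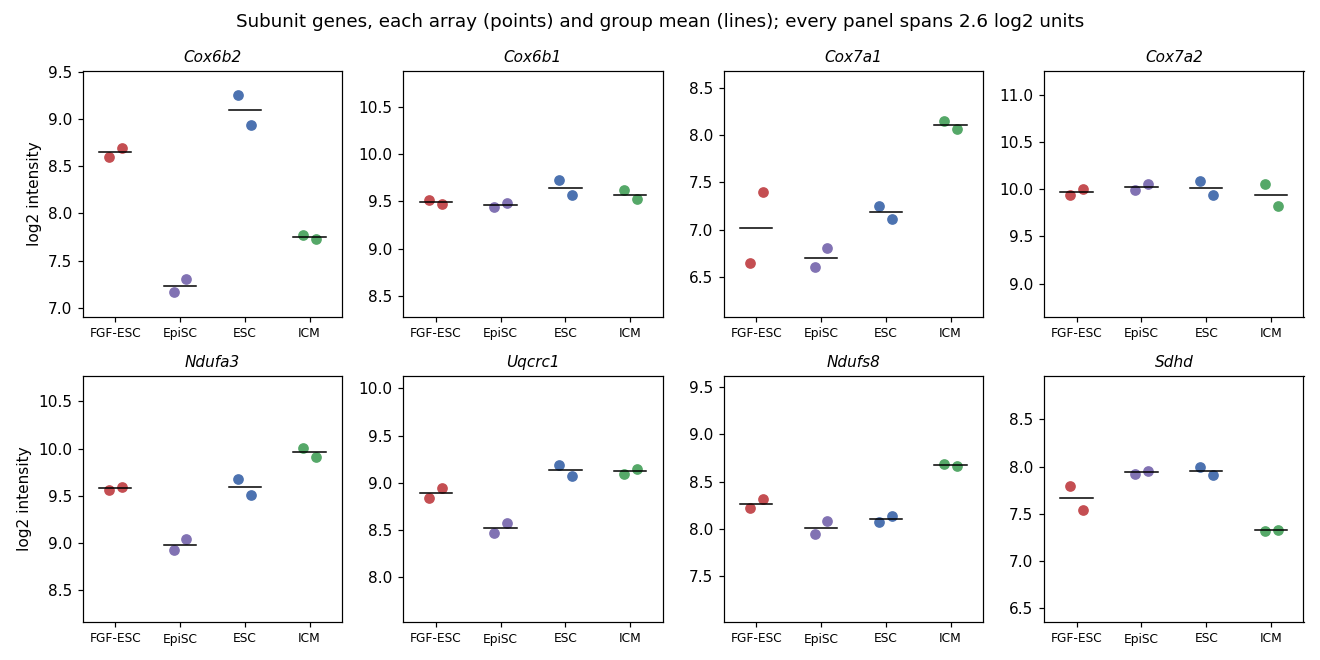
Level (log2 intensity) of 8 subunit genes on each array (points) with group means (lines); each panel spans the same 2.6 log2 units. Cox6b2 runs from 7.16 to 9.25 and Cox7a1 from 6.61 to 8.15, whereas Cox6b1 and Cox7a2 stay close to their means.

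Cox5a, a nuclear subunit on the matrix side, was at 10.34 and 10.50 in FGF-ESC, 10.18 and 10.19 in EpiSC, 10.63 and 10.60 in ESC, and 10.29 and 10.16 in the ICM. ESC was above all other arrays. EpiSC was lower than ESC by a log2 difference of -0.44 (adjusted p = 0.0351) and ESC was higher than the ICM by 0.39 (adjusted p = 0.0338), calls lost without 4 and 5 of the 8 arrays. The remaining isoform families showed no call. Cox6a1, the ubiquitous form, had differences between -0.31 and 0.20, and Cox6a2, the muscle form, was dim on every array (4.83 to 5.17). Cox7b and Cox8a reached -0.23 and -0.32 as their widest differences. Cox7b2 and Cox8c, known from testis, and Cox8b, known from muscle, were too dim to be tested, with levels from 2.46 to 4.07. The other members that were not tested are the pseudogenes Uqcrh-ps1 and Atp5c1-ps.

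Complex V, the ATP synthase, varied little by the brightest probe set of each gene. Its 17 tested members averaged 8.64 and 8.76 in FGF-ESC, 8.71 and 8.75 in EpiSC, 8.75 and 8.78 in ESC, and 8.88 and 8.85 in the ICM. Among the cultured groups 0 members passed. Of all genes, 15.3% passed for FGF-ESC against ESC, 19.8% for FGF-ESC against EpiSC and 19% for EpiSC against ESC. Against the ICM 2 members passed in FGF-ESC (11.8%, against 36.7% of all genes), 1 in EpiSC (5.88%, against 38.4%) and 1 in ESC (5.88%, against 33%). The catalytic beta subunit gene Atp5b had differences between -0.11 and 0.09, the alpha subunit gene Atp5a1 between -0.09 and 0.07, and the gamma subunit gene Atp5c1 between -0.02 and 0.06. Of the genes for the c subunit, which forms the rotating ring, Atp5g2 and Atp5g3 differed by -0.24 to 0.20 by their brightest probe sets. Atp5g1 was dim (3.51 to 4.78) and did not pass. A second bright probe set of Atp5g2 gave 0.42, 0.48 and 0.40 for FGF-ESC, EpiSC and ESC against the ICM. With each probe set tested on its own, Atp5g2 passed for EpiSC against the ICM. Atp5o, the stalk subunit that confers oligomycin sensitivity, was at 4.896 and 4.77 in FGF-ESC, 4.59 and 4.92 in EpiSC, 4.92 and 4.98 in ESC, and 5.36 and 5.38 in the ICM. Its differences from the ICM were -0.54, -0.62 and -0.42 (adjusted p = 0.0164, 0.00841 and 0.0464), at a level near the array median, and the calls were lost without 3, 1 and 4 of the 8 arrays. Atp5k, which encodes subunit e of the membrane part, was lower in FGF-ESC than in the ICM by -0.33 (adjusted p = 0.0484), lost without 7 of the 8 arrays. Atp5h did not pass by its brightest probe set. Another, near the array median, gave -1.14, -0.53 and -0.77 for FGF-ESC, EpiSC and ESC against the ICM. With the mean of its probe sets, Atp5h passed against the ICM in FGF-ESC and ESC.

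The subunits encoded in mitochondrial DNA lie outside the symbol pattern. Of the 10 measured, 3 were lower in FGF-ESC than in the ICM (30%, against 36.7% of all genes called), 2 in EpiSC (20%, against 38.4%) and 5 in ESC (50%, against 33%), and 0 were higher. ND2 was at 10.53 and 10.51 in FGF-ESC, 10.62 and 10.60 in EpiSC, 10.55 and 10.50 in ESC, and 10.97 and 10.99 in the ICM, with differences from the ICM of -0.46, -0.37 and -0.45 (adjusted p = 0.0112, 0.0254 and 0.0131). Every cultured array lay below the ICM arrays. ND3 was higher in EpiSC than in ESC by 0.55 (adjusted p = 0.013), the only mitochondrial call among the cultured groups. Against the ICM, the ND2 call of FGF-ESC held without any 1 array, that of ESC was lost without either ESC array, and that of EpiSC was lost without any 1 of the ESC, EpiSC or ICM arrays. The ND3 call between EpiSC and ESC was lost without either ESC array or EpiSC replicate 1.

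Cytochrome c, the carrier between complexes III and IV, gave a larger difference than any member did. Cyct, the testis form, was at 8.61 and 9.18 in FGF-ESC, 3.997 and 5.10 in EpiSC, 5.37 and 5.23 in ESC, and 8.004 and 7.38 in the ICM. FGF-ESC and the ICM were high, EpiSC and ESC low, with no overlap between these pairs. It was higher in FGF-ESC than in ESC by 3.59 ± 0.36 (adjusted p = 0.000758) and than in EpiSC by 4.34 (adjusted p = 0.000195), and lower than in the ICM by -3.14 in EpiSC and -2.39 in ESC (adjusted p = 0.000249 and 0.00151). EpiSC replicate 1 lay below the array median of 4.24, so the differences from EpiSC rest in part on a value near background. The FGF-ESC excess over the ICM, 1.20 on the log2 scale (adjusted p = 0.0311), was lost without FGF-ESC replicate 2, either ESC array or ICM replicate 2. Cycs, the somatic form, had differences between -0.30 and 0.29, and Cox4i1 and Cox4i2, isoforms of a complex IV subunit outside the pattern, between -0.13 and 0.14, none of which passed. Cyc1, the cytochrome of complex III, was lower in EpiSC than in the ICM by -0.46 (adjusted p = 0.0459), a call lost without 6 of the 8 arrays.

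Assembly factors, which build the complexes without being part of them, stood lower than in the ICM for the most part where they passed. Of 46 tested, 22 passed in FGF-ESC (4 higher, 18 lower; 47.8%, against 36.7% of all genes), 21 in EpiSC (4 higher, 17 lower; 45.7%, against 38.4%) and 20 in ESC (3 higher, 17 lower; 43.5%, against 33%). Tmem70, needed to assemble the ATP synthase, was at 6.85 and 6.42 in FGF-ESC, 6.86 and 6.86 in EpiSC, 5.96 and 5.75 in ESC, and 7.86 and 7.89 in the ICM. ESC lay below all other arrays, with a log2 difference from the ICM of -2.02 (adjusted p = 5.31e-05). Acad9, a complex I assembly factor, was at 5.73 and 5.53 in FGF-ESC, 5.80 and 5.97 in EpiSC, 5.87 and 5.87 in ESC, and 7.25 and 7.25 in the ICM. Its differences from the ICM were -1.62, -1.37 and -1.38 (adjusted p = 3.95e-05, 7.13e-05 and 0.000111). Cox18, which inserts a complex IV subunit into the membrane, fell by 1.13 in EpiSC and by 1.04 in ESC relative to the ICM (adjusted p = 0.000838 and 0.00175). These calls held without any 1 array. Among the cultured groups, 3 factors passed between FGF-ESC and ESC (6.52%, against 15.3% of all genes), 5 between FGF-ESC and EpiSC (10.9%, against 19.8%) and 5 between EpiSC and ESC (10.9%, against 19%). Ndufaf4, a complex I factor, was lower in FGF-ESC than in EpiSC by -0.81 (adjusted p = 0.00317).

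The citric acid cycle supplies the electrons that complexes I and II take up. Of 16 tested genes, 7 passed in FGF-ESC against the ICM (1 higher, 6 lower; 43.8%, against 36.7% of all genes), 7 in EpiSC (all lower; 43.8%, against 38.4%) and 4 in ESC (1 higher, 3 lower; 25%, against 33%). Suclg2, a succinyl-CoA ligase subunit, was at 8.07 and 8.30 in FGF-ESC, 8.34 and 8.39 in EpiSC, 7.16 and 7.26 in ESC, and 8.97 and 8.91 in the ICM. ESC lay below every other array, and the difference was 0.97 for FGF-ESC against ESC (adjusted p = 0.0024) and 1.15 for EpiSC against ESC (adjusted p = 0.000467). Idh2, the NADP-linked isocitrate dehydrogenase, ran the other way, at 8.33 and 8.83 in FGF-ESC, 8.08 and 8.002 in EpiSC, 9.31 and 9.14 in ESC, and 7.80 and 7.99 in the ICM, with EpiSC lower than ESC by a log2 difference of -1.18 (adjusted p = 0.00225).

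Of 17 tested regulators of mitochondrial genes, 1 passed between FGF-ESC and ESC (5.88%, against 15.3% of all genes), 4 between FGF-ESC and EpiSC (23.5%, against 19.8%) and 4 between EpiSC and ESC (23.5%, against 19%). Between FGF-ESC and EpiSC, and between EpiSC and ESC, the 4 were Lin28a, Lin28b, Esrrb and Stat3. Esrrb is also counted among the naive markers. Against the ICM, 7 passed in FGF-ESC (41.2%, against 36.7%), 9 in EpiSC (52.9%, against 38.4%) and 4 in ESC (23.5%, against 33%). Lin28a, an RNA-binding protein known to affect the translation of respiratory chain messages, was at 6.36 and 6.48 in FGF-ESC, 7.67 and 7.46 in EpiSC, 6.85 and 6.83 in ESC, and 5.72 and 5.83 in the ICM. EpiSC was highest and the ICM lowest, and the difference of FGF-ESC from EpiSC was -1.15 (adjusted p = 0.000611). Tfb2m, a mitochondrial transcription factor, was lower than in the ICM by -1.07 in FGF-ESC, -1.19 in EpiSC and -1.37 in ESC (adjusted p = 0.00212, 0.00107 and 0.00069). With the mean of its probe sets in place of the brightest, these differences were -0.58, -0.72 and -0.80, and all passed. Gabpa, which binds the ETS motif, was lower by -0.76 in FGF-ESC, -0.98 in EpiSC and -0.49 in ESC (adjusted p = 0.00555, 0.00137 and 0.0382), and the ESC call was lost under 8 of 18 alternatives, among them quantile normalization and leaving out any 1 of the ESC, EpiSC or ICM arrays. Nrf1, whose motif stands in the promoters above, was at 6.31 and 6.44 in FGF-ESC, 6.47 and 6.54 in EpiSC, 6.63 and 6.56 in ESC, and 6.77 and 6.70 in the ICM. It was named for its motif, after its values were seen.

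**Figure D4:**
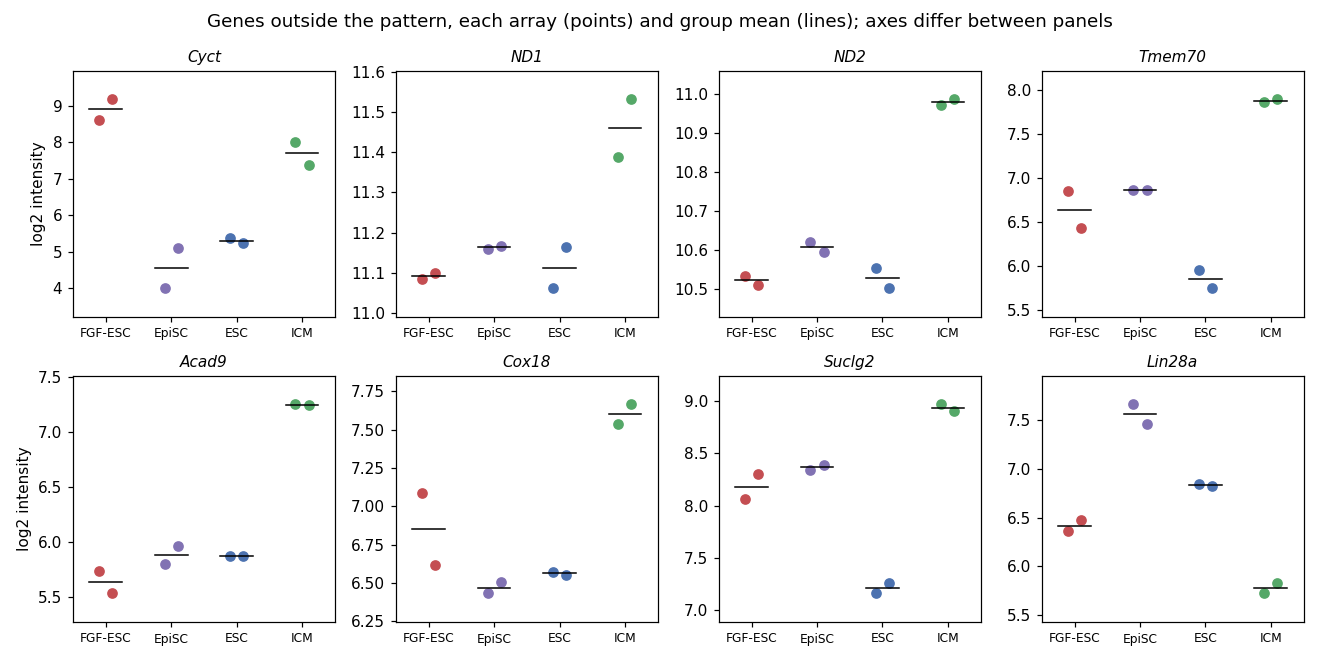
Level (log2 intensity) of 8 genes outside the symbol pattern on each array (points) with group means (lines); axes differ between panels. Cyct is high in FGF-ESC and the ICM, ND1, ND2, Tmem70, Acad9, Cox18 and Suclg2 are highest in the ICM, and Lin28a is highest in EpiSC.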

How the data were processed

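The authors deposited 1 log2 intensity per probe set and array, and the submitters' processing notes name Affymetrix Expression Console 1.3.1. Labelling used NuGEN kits, per the labels' protocols. The sources used here do not give the summarisation, background correction or normalization. The log2 scale was read from the range of the deposited values, 1.63 to 12.2. Of 41345 probe sets, 23521 have 1 gene symbol in the platform annotation and were used. The 10 subunit probe sets that list several genes were left out, and with them Cox6c, Ndufb2, Ndufb4, Ndufs6 and Uqcr10.

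A means model over all 8 arrays was fitted with limma 3.58.1 in R 4.3.3 (lmFit, contrasts.fit, eBayes), with 4 residual degrees of freedom, so each SE draws on every group. P-values were adjusted by Benjamini-Hochberg over 13597 genes per comparison; passing means an adjusted p below 0.05 with no fold minimum. Every p in the text is limma's. The number of arrays limits the precision. The code was tested on simulated data. Promoter motifs were exact letter matches on both strands; the NRF1 and YY1 letters are cores of motifs first searched at greater length.

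Members and lists were chosen with earlier results of these data known. Named members are, per comparison, up to 6 rises and 6 falls past the threshold without overlap, tissue isoforms, core subunits and members not tested, with up to 4 genes per other list. The alternatives were scaling, filter, probe set choice, variance prior, fold minimum, samples in the fit, replicate block and leaving out each array.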

Additional observations from a re-analysis of the deposited data

How the results depend on the processing

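Of 52 calls of a member in a comparison, tried under the alternatives, 701 of 934 trials kept the call, 233 lost it and 0 changed direction. The calls of Ndufa4l2 and Ndufs5 had no value under the stricter filter, which left these genes out. In all, 14 calls held without any 1 array, 5 under every alternative, and 12 under every alternative but the fold minimum. A fold minimum removes each call with a smaller difference, whatever the data, and such losses are among the 233. With a trended and robust variance prior, 1 member was called for FGF-ESC against ESC (16.4% of all genes), 7 against EpiSC (21.1%) and 23 against the ICM (37.5%). It was 8 for EpiSC against ESC (19.9%) and 25 against the ICM (38.9%), and 19 for ESC against the ICM (34%). Against the ICM, the members called rose from 14, 15 and 15, while the shares of all genes moved little from 36.7%, 38.4% and 33%. With a fold minimum of 1 on the log2 scale, the number of members called was 1 for FGF-ESC against EpiSC and 2 against the ICM. For EpiSC it was 1 against ESC and 1 against the ICM, and for ESC it was 1 against the ICM. With only the 2 groups compared in the fit, the number was 4 for FGF-ESC against the ICM (22.7% of all genes) and 10 for EpiSC against ESC (31.9%). Leaving out each array gave 0 to 2 for FGF-ESC against ESC, 1 to 5 against EpiSC and 5 to 15 against the ICM, 1 to 7 for EpiSC against ESC, 7 to 20 for EpiSC against the ICM and 1 to 17 for ESC against the ICM. Where this left a group with 1 array, that array was assumed to vary like the other groups. The share of all tested genes that passed also changed with the array left out. Nothing says whether the label's replicate numbers pair arrays across groups. Deviations of same-numbered arrays correlated between -0.09 and 0.04 over all tested genes, which cannot exclude a pairing that affects some genes. With the replicate block, 1 member passed between FGF-ESC and ESC (13.4% of all genes), Ndufb11, which was lower in FGF-ESC. The dim members Ndufs5, Atp5g1, Atp5o, Cox6a2 and Ndufa4l2, and Cyct in EpiSC, lie near the array median, where signal over background limits what a difference can show.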
